A study of Homo sapiens with 2 samples.

Results

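A549, a cell line from a human lung adenocarcinoma, is described here through 9 genes: 3 mucin genes (MUC1, MUC5AC and MUC5B) and 6 genes of transcription factors that specify lung and other endoderm-derived tissues (NKX2-1, FOXA1, FOXA2, GATA6, SOX9 and HNF4A). They were chosen by name, and all 9 were among the 39720 gene symbols of the deposited count table. RNA was sequenced from cells infected with lentivirus for a short hairpin RNA against DEPDC1B (shDEPDC1B) and from cells infected with lentivirus for a negative control hairpin (shNC). Both groups received 5 µg/mL polybrene and were harvested on day 2, so lentiviral infection is shared by both. Each group has 1 library, and the labels give neither the hairpin sequences nor the number of hairpins. The comparison asks which transcripts differ when DEPDC1B, which encodes a DEP domain protein, is knocked down in lung adenocarcinoma cells. With 1 library per group there is no replicate check and no test, so every difference below is between 2 libraries and not between 2 conditions. In such bulk RNA, fewer cells that express a gene and less of its RNA per cell cannot be told apart.

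Mucins are long glycoproteins whose repeat regions, rich in serine and threonine, carry dense O-linked sugars. MUC5AC and MUC5B are secreted and form the gel of airway mucus, whereas MUC1 spans the apical membrane of epithelial cells. NKX2-1 marks lung epithelium and drives surfactant genes, and FOXA1 and FOXA2 open chromatin for it and for other endodermal factors. GATA6 acts in early endoderm and in the lung, SOX9 marks the distal tips of the growing lung, and HNF4A is the main factor of liver, gut and gastric epithelium. Lung adenocarcinomas without NKX2-1 often express HNF4A and gastric or gut mucins.

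HNF4A has several starts, and the deposited counts sum its transcripts over all of them. The windows of 250 bases before 2 of its starts are shown because HNF4A was the factor with the lowest ratio and because the table cannot tell its starts apart. They are from the RefSeq promoter table (GRCh38.p14, plus strand), the upstream start at chr20:44355449-44355698 and the downstream start at chr20:44400989-44401238, and neither window overlaps an annotated exon of HNF4A. Capitals mark matches, on either strand, to 5 short words taken for binding motifs. For the forkhead factors FOXA1 and FOXA2 the word was TGTTTAC. For the nuclear receptor HNF4A the word CAAAGTCCA was searched, and for the zinc finger factor GATA6 the word AGATAA. For the HMG box factor SOX9 the word was ACAATG, and for the homeodomain factor NKX2-1 it was CTCAAG.
HNF4A upstream start: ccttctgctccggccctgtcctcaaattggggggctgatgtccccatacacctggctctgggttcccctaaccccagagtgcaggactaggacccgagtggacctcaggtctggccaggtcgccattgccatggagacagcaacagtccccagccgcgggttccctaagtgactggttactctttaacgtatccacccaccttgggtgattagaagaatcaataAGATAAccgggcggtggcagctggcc
HNF4A downstream start: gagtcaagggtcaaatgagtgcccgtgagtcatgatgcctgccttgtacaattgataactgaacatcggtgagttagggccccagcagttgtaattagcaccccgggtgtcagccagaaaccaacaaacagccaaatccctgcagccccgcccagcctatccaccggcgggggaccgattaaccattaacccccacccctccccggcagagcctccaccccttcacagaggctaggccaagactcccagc
The upstream window held 1 match, to the word of GATA6, which 9.17% of the 35116 windows of this length in the table hold. The downstream window held none of the 5 words. A match is one of letters and not a measured site, and no match says only that these letters are not in the window. Of the other members, the table also held windows for MUC1, NKX2-1, FOXA1 and GATA6, and each of these overlapped an annotated exon of its gene and is not printed.

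For the mucins, 2 stretches of coding sequence from the GENCODE 29 transcripts (GRCh38) show where their reads are hard to place. The first is the 60-base unit of the tandem repeat of MUC1 (minus strand of chromosome 1), and the second is the longest run that the transcripts of MUC5AC and MUC5B (plus strand of chromosome 11) have in common.
MUC1 repeat unit: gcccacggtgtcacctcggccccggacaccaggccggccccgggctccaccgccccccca
MUC5AC and MUC5B shared run: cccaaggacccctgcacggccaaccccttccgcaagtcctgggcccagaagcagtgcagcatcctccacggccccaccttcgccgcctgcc
This exact unit occurred 16 times in a repeat stretch of 2104 bases, which is 50.5% of the 4170-base MUC1 transcript. The shared run has 91 bases, and 0.434% of the 50-base words of MUC5AC and 0.431% of those of MUC5B occurred in the other mucin, whereas none of their 100-base words did. Reads of the neighbouring gel mucins could thus be told apart over nearly all of their length. Antisense genes were the larger overlap: 2.68% of the 50-base words of MUC5B, 11.6% of those of NKX2-1 and 11.9% of those of GATA6 lay in other annotated genes, mostly on the opposite strand. The labels do not say whether strand was kept, so within these shared words reads of the genes and their antisense partners cannot be told apart. For MUC1, FOXA1 and SOX9 no 50-base word occurred in another gene.

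The libraries held 18862371 counts (shDEPDC1B) and 18647290 counts (shNC), as sums of estimated counts rounded to whole numbers. DEPDC1B itself had 39 counts in shDEPDC1B and 329 in shNC, which leaves 12.5% of the shNC level. Values were scaled by trimmed means (TMM), and a ratio is that of scaled counts, shDEPDC1B over shNC, with a 95% interval in square brackets that covers counting error only. A gene was assessed if at least 1 library held 30 counts of it, and called at 1.5-fold or more when the interval excluded equality. Levels are given in CPM, TMM-scaled counts relative to the library total. Of 13850 assessed genes, 2662 (19.2%) were called higher and 2708 (19.6%) lower, so that lower genes made up 50.4% of the calls, or 61.2% with library totals in place of TMM. The difference between the libraries was therefore broad, and a 1.5-fold difference was common.

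Of the 9 genes, 8 were assessed, and MUC5B was the 1 called, at 1.63-fold lower, a call that ended after a fit on transcript length and GC content (log2 ratio -0.21 [-0.30, -0.11]). None was called higher, and the share called, 1 of 8, is below the 38.8% of all assessed genes called in either direction. HNF4A was 1.44-fold lower, short of the threshold, and FOXA1 and FOXA2 were each about 1.2-fold higher. With TMM the intervals of MUC1, MUC5AC, GATA6 and SOX9 included equality, which for MUC5AC and GATA6 depended on the scaling, and NKX2-1 was at the limit of detection in both libraries. The median log2 ratio of the 8 genes was -0.11, beside 0.04 over all assessed genes. Whatever the fold, the interval with TMM lay above equality for 2 of the 8 and below it for 2, beside 38.9% and 34.9% of all assessed genes (73.8% on either side). At 2-fold or more none of the 8 was called, beside 5.86% of all assessed genes called higher and 8.97% lower (14.8% in all).

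**Figure D1:**
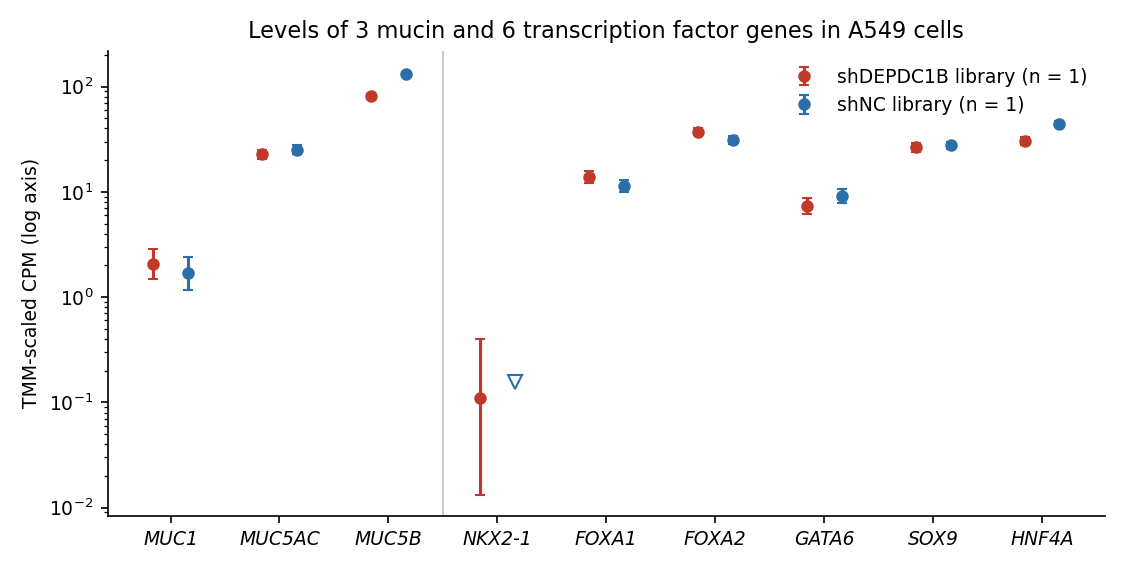
Levels in CPM (TMM-scaled, log axis) of the 3 mucins, left of the line, and the 6 transcription factors in the shDEPDC1B library (red) and the shNC library (blue), 1 library each. Bars are exact 95% intervals of counting error, and the open triangle marks the level of 3 counts (0.156 CPM) as the limit for NKX2-1, which had 0 counts in shNC.

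MUC5B (chromosome 11, 1223066 to 1262172, plus strand, GRCh38 as are all gene positions below) had the most counts of the 3 mucins. It had 1483 counts in shDEPDC1B and 2562 in shNC, or 81.3 and 133 CPM. The log2 ratio was -0.71 [-0.80, -0.62], so 61.2% of the shNC level was left. Counted from the lowest ratio, it ranked 2203 of the 13850 assessed genes. MUC5AC, the other gel-forming airway mucin, lies on the same strand with its end 21927 bases before the start of MUC5B (chromosome 11, 1157953 to 1201138). It had 414 counts in shDEPDC1B and 486 in shNC (22.7 and 25.2 CPM), with a log2 ratio of -0.15 [-0.34, 0.04]. Its interval lay below equality with DESeq2 size factors (-0.20 [-0.40, -0.01]), library totals (-0.25 [-0.44, -0.06]) and a loess on mean expression (-0.21 [-0.41, -0.02]), and above it after the length and GC fit (0.42 [0.22, 0.61]). Despite their closeness the 2 genes did not have the same ratio: that of MUC5AC was higher by 0.56 [0.34, 0.77] on the log2 scale.

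That difference can also be read within each library, where no scaling enters. MUC5AC made up 21.8% [20.0, 23.8] of the counts of the pair in shDEPDC1B and 15.9% [14.7, 17.3] in shNC. The intervals do not overlap. The nearest assessed gene after MUC5B is TOLLIP, a regulator of innate immune signalling on the opposite strand, 12199 bases away, with 1649 counts in shDEPDC1B and 1006 in shNC (log2 ratio 0.79 [0.68, 0.91]). On the other side its nearest assessed gene is MUC5AC, and AP2A2, an adaptor subunit of clathrin-coated vesicles that lies 145708 bases before MUC5AC, was at 0.63 [0.49, 0.76]. These neighbours were chosen by position, after the values of the members had been seen.

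MUC1 (chromosome 1, 155185824 to 155192916, minus strand) was the lowest of the 3, with 38 counts in shDEPDC1B and 33 in shNC (2.08 and 1.71 CPM). Its log2 ratio of 0.28 [-0.43, 1.0] leaves the direction undetermined at this depth. The repeat shown above affects this gene most: 42.4% of the 50-base positions of its longest transcript repeat elsewhere in it, against 21.4% for MUC5AC and 29.2% for MUC5B. How the deposited counts treat reads that repeat within a gene was not tested.

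**Figure D2:**
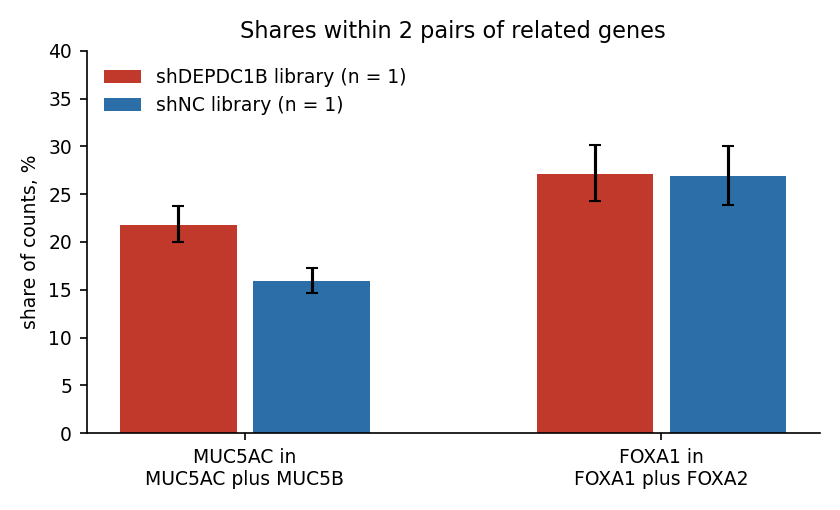
Share of MUC5AC in the counts of MUC5AC plus MUC5B (left) and of FOXA1 in those of FOXA1 plus FOXA2 (right), in percent, for the shDEPDC1B library (red) and the shNC library (blue), with exact 95% intervals of counting error. The MUC5AC share was 21.8% and 15.9%, and the FOXA1 share 27.1% and 26.9%.

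Among the factors, NKX2-1 (chromosome 14, 36516392 to 36521149, minus strand) had 2 counts in shDEPDC1B and 0 in shNC. A count of 0 allows up to 3 counts, or 0.156 CPM in shNC, so no fold is given. Its antisense gene NKX2-1-AS1 was listed at 0 in both libraries. The factor that marks lung epithelium was thus not detectable above the limit in either library.

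FOXA2 (chromosome 20, 22581005 to 22585455, minus strand), a pioneer factor of endoderm, had 680 counts in shDEPDC1B and 599 in shNC (37.3 and 31.1 CPM), a log2 ratio of 0.26 [0.10, 0.42]. FOXA1 (chromosome 14, 37589984 to 37596059, minus strand), its close relative, had 253 and 220 counts in the same order (13.9 and 11.4 CPM), a log2 ratio of 0.28 [0.02, 0.55]. Their ratios differed by 0.02 [-0.29, 0.33], less than counting error. Accordingly FOXA1 held 27.1% [24.3, 30.1] of the counts of the pair in shDEPDC1B and 26.9% [23.9, 30] in shNC. The interval of FOXA1 included equality with library totals in place of TMM (log2 ratio 0.19 [-0.08, 0.45]), with DESeq2 size factors (0.23 [-0.04, 0.50]) and after a loess on mean expression (0.23 [-0.04, 0.49]), whereas that of FOXA2 did not under these 3. The third gene of the family, FOXA3, had 7 counts in shDEPDC1B and 6 in shNC. LINC00261, a long noncoding RNA gene that lies 2363 bases from FOXA2 on the same strand, did not share its ratio: it had 36 counts in shDEPDC1B and 82 in shNC (log2 ratio -1.11 [-1.72, -0.53]).

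HNF4A (chromosome 20, 44355700 to 44434596, plus strand), a nuclear receptor, had 558 counts in shDEPDC1B and 852 in shNC (30.6 and 44.2 CPM). At a log2 ratio of -0.53 [-0.69, -0.38] it kept 69.2% of the shNC level. Its interval, which covers counting error only, lay below equality, but the ratio was short of 1.5-fold and HNF4A was not called. With library totals in place of TMM it reached -0.63 [-0.78, -0.47] and passed the threshold. Set against FOXA2, its log2 ratio was lower by 0.79 [0.57, 1.02] (FOXA2 minus HNF4A), a difference that no scaling of whole libraries alters. After the length and GC fit the genes lay closer, FOXA2 at -0.05 [-0.21, 0.11] and HNF4A at -0.28 [-0.44, -0.13]. Its difference from MUC5B was within counting error (MUC5B minus HNF4A, -0.18 [-0.36, 0.00]).

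GATA6 (chromosome 18, 22169443 to 22202528, plus strand), a zinc finger factor, had 135 counts in shDEPDC1B and 176 in shNC (7.40 and 9.13 CPM). Its log2 ratio was -0.30 [-0.64, 0.03]. The antisense gene GATA6-AS1, which overlaps it, had 7 counts in shDEPDC1B and 3 in shNC. SOX9 (chromosome 17, 72121020 to 72126420, plus strand), an HMG box factor, had 481 counts in shDEPDC1B and 532 in shNC (26.4 and 27.6 CPM), at -0.07 [-0.25, 0.12]. The interval of SOX9 included equality under each scaling run. That of GATA6 lay below equality with DESeq2 size factors (-0.36 [-0.69, -0.02]), library totals (-0.40 [-0.73, -0.07]), the loess (-0.34 [-0.67, -0.01]) and the length and GC fit (-0.35 [-0.69, -0.02]). Over the 28 pairs that the 8 assessed genes form, the interval of the difference in log2 ratio excluded 0 for 17, so the genes did not share 1 ratio.

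**Figure D3:**
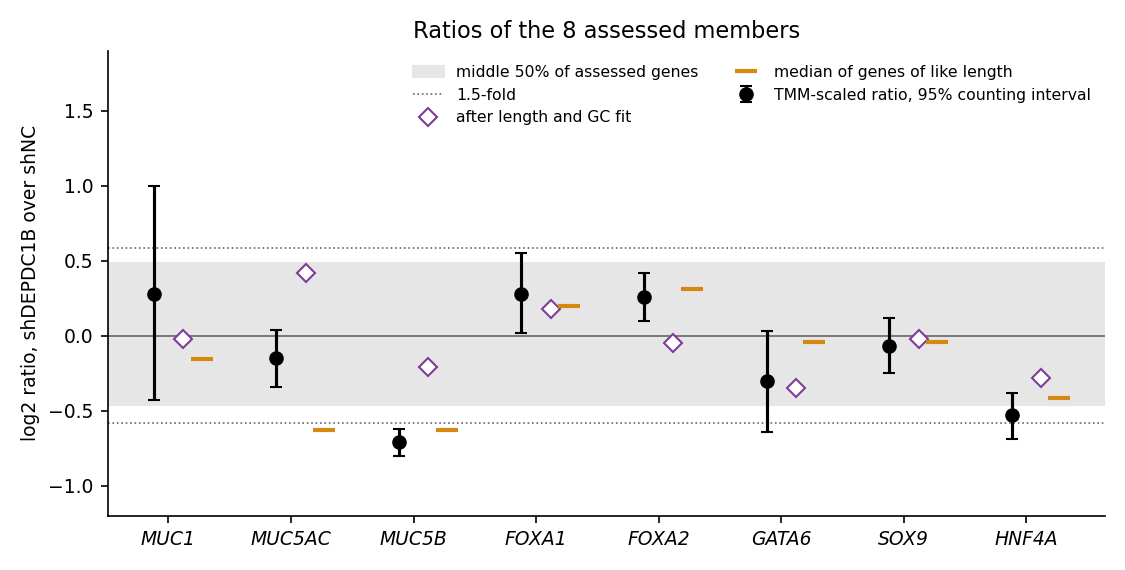
Log2 ratio, shDEPDC1B over shNC, of the 8 assessed genes (black, with exact 95% counting intervals), the same after a fit on transcript length and GC content (open diamonds), and the median of the transcript length decile that holds each gene (orange). The grey band spans the first to the third quartile of all assessed genes, -0.46 to 0.49, and the dotted lines mark 1.5-fold: MUC5B at -0.71 is the point below the lower line.

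Levels of different genes were compared as CPM per kilobase of the longest coding transcript, and they are ordered here within each library. FOXA2 was highest in both, at 15.4 in shDEPDC1B and 12.8 in shNC. In shDEPDC1B it was followed by SOX9 (6.70), FOXA1 (4.85), HNF4A (4.75), MUC5B (4.54), GATA6 (1.96), MUC5AC (1.30) and MUC1 (0.50). In shNC the order was MUC5B (7.42), SOX9 (7.01), HNF4A (6.86), FOXA1 (3.99), GATA6 (2.42), MUC5AC (1.44) and MUC1 (0.410) after FOXA2. MUC5B thus stood below SOX9 in shDEPDC1B and beside it in shNC. Per kilobase of all merged exons, the order among FOXA1 (3.48), HNF4A (4.18) and MUC5B (4.37) in shDEPDC1B was turned round, so their order rests on the length used. Neighbours that counting error did not separate were FOXA1 and HNF4A (ratio 1.02 [0.877, 1.19]) and HNF4A and MUC5B (1.05 [0.947, 1.15]) in shDEPDC1B, and MUC5B and SOX9 (1.06 [0.963, 1.16]) and SOX9 and HNF4A (1.02 [0.916, 1.14]) in shNC. Among 12297 assessed protein-coding genes, FOXA2 ranked 4020 from the top in shDEPDC1B and 4540 in shNC, and MUC1 ranked 11798 and 12033 in the same order, so that even the highest of the 9 was a gene of middling level.

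Transcript length moved with the ratio across the whole table, and the members differ in length by a wide margin. Median log2 ratios ran from 0.58 in the decile of protein-coding genes with the shortest transcripts (177 to 1503 nucleotides) down to -0.63 in that with the longest (7662 to 109224). The transcripts of MUC5AC (17448 nucleotides) and MUC5B (17911) belong to that last decile, in which 52.3% of genes were called lower. Its median length is 9585 nucleotides, so both mucins are set beside genes that are mostly shorter. HNF4A (6445 nucleotides) belongs to the decile before it, whose median was -0.42. MUC5B and HNF4A thus lay close to the medians of their length deciles, as did FOXA2 (2422 nucleotides, median 0.31), FOXA1 (2862, 0.20) and SOX9 (3935, -0.04). MUC5AC, at -0.15, was higher than the median of its decile, and so was MUC1, at 0.28 beside -0.16, though its wide interval included that median. GATA6, at -0.30, was below its decile median of -0.04, which its interval also included.

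A linear fit on length and GC content over all assessed protein-coding genes took up 27.9% of the variance of the log2 ratio. Once it was subtracted, MUC5B was at -0.21, within 1.5-fold, HNF4A at -0.28 and MUC5AC at 0.42. FOXA2 changed sign, to -0.05, while FOXA1 was at 0.18, GATA6 at -0.35, SOX9 at -0.02 and MUC1 at -0.02. After the fit no member was called. The cause of the trend with length was not tested.

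**Figure D4:**
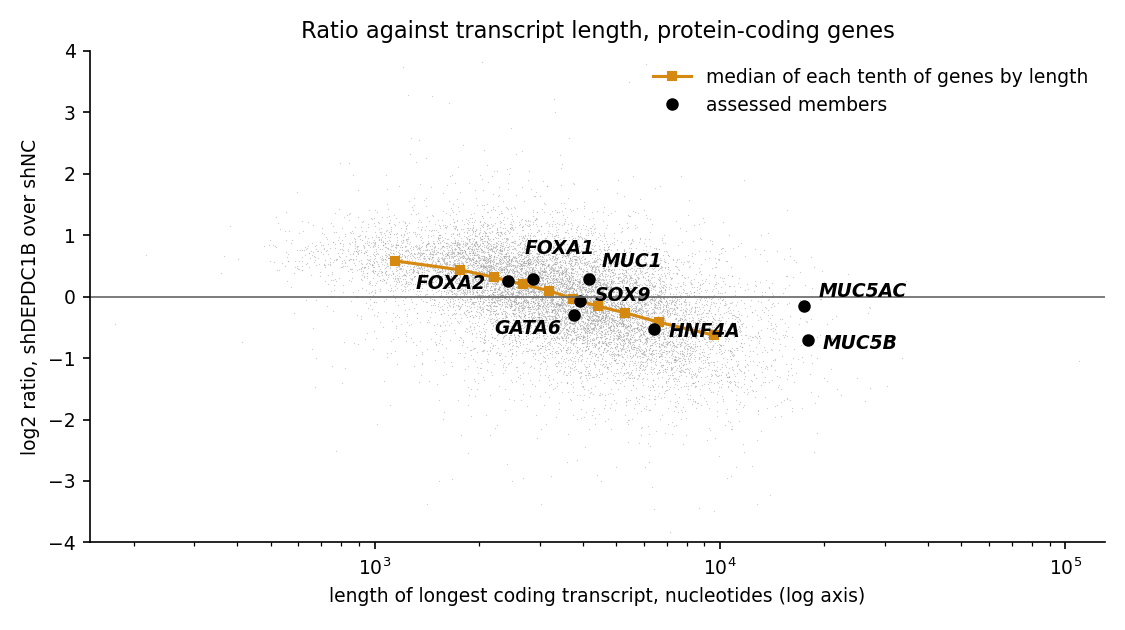
Log2 ratio, shDEPDC1B over shNC, of 12297 assessed protein-coding genes (grey) against the length of the longest coding transcript (log axis), with the median of each decile of genes by length (orange) and the 8 assessed members (black). The medians run from 0.58 for the shortest to -0.63 for the longest transcripts, MUC5B lies near the last of them and MUC5AC above it, and 17 genes lie beyond the vertical range.

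The genes around the members were described with lists chosen by function. Of 20 genes listed as other mucins, 16 were below 30 counts, 4 were assessed and none was called. CD164, a small sialomucin, was the most abundant, at 194 CPM in shDEPDC1B and 180 in shNC. MUC13, a membrane mucin of the gut, had 306 counts in shDEPDC1B and 233 in shNC, at 0.47 [0.22, 0.73], and MUC3A and MCAM had intervals that reached equality. MUC2 and MUC6, the other gel mucins of the 11p15 cluster, had 3 and 1 counts in shDEPDC1B and 5 and 1 in shNC, values that are uncertain because they are not whole hundredths in the deposited table. Of this chromosome 11 cluster, MUC5B and MUC5AC alone were assessed.

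Of 36 enzymes of mucin-type O-glycosylation, 26 were assessed, 4 were called higher and 6 lower, or 15.4% and 23.1%, beside 19.2% and 19.6% of all assessed genes. The median log2 ratio was 0.10 and the mean -0.13. GALNT4 and GALNT5, which start the sugar chains, had the lowest ratios, at -2.36 [-2.62, -2.11] (148 counts in shDEPDC1B, 804 in shNC) and -2.10 [-2.62, -1.61] (42 and 190). The sialyltransferase ST3GAL1 was at -1.23 [-1.42, -1.04]. On the higher side, the sialyltransferase ST6GALNAC4 was at 1.22 [0.99, 1.45], the mucin core branching enzyme GCNT3 at 0.88 [0.81, 0.95] and C1GALT1C1, the chaperone of the core galactosyltransferase, at 0.78 [0.62, 0.95]. The most abundant member, GALNT2, had 502 CPM in shDEPDC1B and 376 in shNC. The list thus split in direction, and GALNT4 and GALNT5 were at -1.95 and -1.65 once length and GC content were fitted.

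Genes of mucous and secretory airway cells were detected in part: 18 of 24 were below 30 counts, and 8 of these were listed at 0 in both libraries, among them the secretoglobin SCGB1A1 and the trefoil factor TFF3. Of the 6 that were assessed, 2 were called higher and none lower, beside 19.2% and 19.6% of all assessed genes, and the median was 0.26 (0.01 at a minimum of 10 counts). SLPI, a secreted protease inhibitor, had 332 counts in shDEPDC1B and 108 in shNC, at 1.70 [1.38, 2.03], or 0.85 after the length and GC fit, and LCN2, an iron-binding protein of innate defence, was at 1.05 [0.33, 1.81], or 0.32 after that fit, short of the threshold. AGR2, a disulfide isomerase that folds gel mucins, was the most abundant, with 5682 counts in shDEPDC1B and 4184 in shNC, at 0.52 [0.46, 0.58]. SPDEF, a factor of goblet cells, had 45 counts in shDEPDC1B and 56 in shNC, and its interval included equality.

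Of 17 partners and sheddases of MUC1, 16 were assessed, 2 were called higher and 5 lower (12.5% and 31.2%, beside 19.2% and 19.6% of all assessed genes), with a median of -0.10 (0.06 after the length and GC fit). EGFR, which MUC1 binds, had 1714 counts in shDEPDC1B and 6563 in shNC, at -1.86 [-1.93, -1.78], and ERBB3 was at -0.92 [-1.2, -0.64]. The most abundant of the list was ADAM9, a membrane protease, at -0.86 [-0.91, -0.81], though this interval is uncertain for the same reason as the counts of MUC2. JUP, a catenin, was at 0.66 [0.59, 0.72], or 0.45 after the length and GC fit, and MMP14, a membrane metalloprotease, at 0.86 [0.21, 1.54].

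Alveolar genes and targets of NKX2-1 bear on the labelled lung adenocarcinoma cell type. Of 22, 16 were below 30 counts: the surfactant genes SFTPA1 and SFTPA2 were listed at 0 in both libraries, SFTPB had 9 counts in shDEPDC1B and 10 in shNC, and the aspartic protease NAPSA had 10 and 9. The defining surfactant markers were thus at or near 0, as NKX2-1 was. Of the 6 assessed, 2 were called higher and 3 lower, beside 19.2% and 19.6% of all assessed genes, with a median of -0.19 (0.07 at a minimum of 10 counts). LPCAT1, a surfactant lipid enzyme, was at -1.29 [-1.41, -1.16], the factor ETV5 at -0.74 [-0.89, -0.60] and the lipid transporter ABCA3 at -0.66 [-0.77, -0.55] (-0.54 after the length and GC fit, short of the threshold). CAV1, of caveolae, was at 0.64 [0.60, 0.69] and the selenium-binding protein SELENBP1 at 0.90 [0.69, 1.11] (0.49 after that fit).

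Other lineage factors were better represented, with 28 of 46 assessed, of which 4 were called higher and 6 lower, or 14.3% and 21.4%, beside 19.2% and 19.6% of all assessed genes, and a median of -0.23. Among the lower ones, KLF5 was at -0.87 [-0.98, -0.75] and TBX3 at -0.76 [-0.95, -0.57]. CEBPD and CEBPB, basic leucine zipper factors, were higher, at 1.14 [1.0, 1.30] and 0.99 [0.91, 1.07], as was SOX21 at 1.22 [0.57, 1.91]. After the length and GC fit CEBPD was at 0.56 and CEBPB at 0.43, both short of the threshold, and SOX21 at 1.03. ELF3, an epithelial ETS factor, was the most abundant of the list, with 237 CPM in shDEPDC1B and 217 in shNC. Of 15 other SOX genes 12 were below 30 counts, and the 3 assessed, SOX4 (-0.26), SOX12 (-0.44) and SOX13 (-0.43), had intervals below equality without being called.

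Liver and gut genes known as targets of HNF4A did not have the direction of HNF4A. Of 32, 12 were assessed, 8 were called higher and none lower, or 66.7% and 0%, beside 19.2% and 19.6% of all assessed genes, and the median was 0.66. APOH, a plasma glycoprotein, had 286 counts in shDEPDC1B and 130 in shNC, at 1.22 [0.91, 1.53], coagulation factor F7 was at 1.5 [0.82, 2.23] and fibrinogen chain gene FGB at 0.78 [0.64, 0.91]. The most abundant, FGA, had 122 CPM in shDEPDC1B and 79.4 in shNC (0.62 [0.53, 0.72]). After the length and GC fit the median of the list was 0.55. HNF4A itself was at -0.53. The apolipoprotein genes APOA2, APOA4, APOB and APOC3 were listed at 0 in both libraries, and so was FABP1, so that only part of the liver and gut programme was measurable. No count of the list was tested.

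Of 21 cofactors and nuclear receptors that work with these factors, 19 were assessed, 2 were called higher and 7 lower (10.5% and 36.8%, beside 19.2% and 19.6% of all assessed genes), with a median of -0.29. The coactivators NCOA1, NCOA2 and EP300 were at -1.78 [-1.97, -1.58], -1.46 [-1.62, -1.30] and -1.2 [-1.34, -1.07]. Their median transcript is long, 5275 nucleotides over the list, and 28.2% of genes in the decile of that length were called lower. The list median was -0.22 after the length and GC fit. NCOA3, the most abundant, had 324 CPM in shDEPDC1B and 396 in shNC. The orphan nuclear receptors NR2F6 and NR2F1 were at 0.90 [0.77, 1.03] and 0.59 [0.41, 0.78], and at 0.34 and 0.48 after that fit, short of the threshold. Their relative NR2F2 went the other way and was called lower, at -1.11 [-1.28, -0.94], or -0.90 after that fit.

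**Figure D5:**
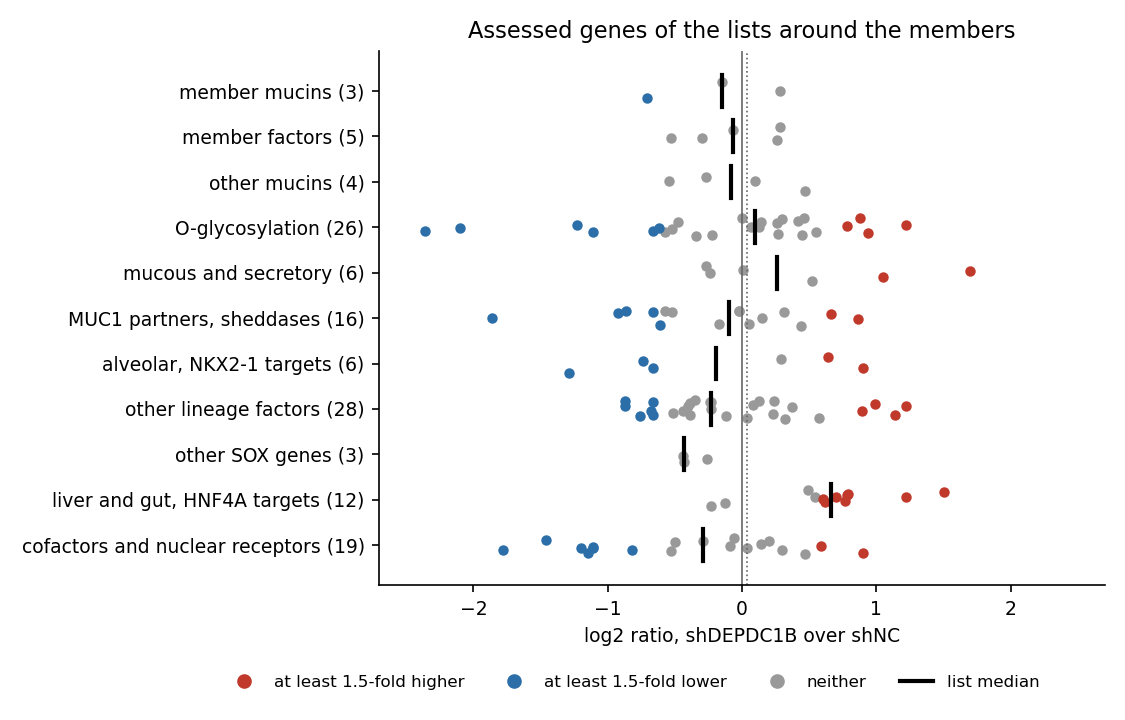
Log2 ratio, shDEPDC1B over shNC, of every assessed gene of the members and of 9 lists around them, with the number of assessed genes in brackets. Points are red when called at least 1.5-fold higher and blue when called at least 1.5-fold lower, black bars are list medians, from -0.43 (other SOX genes) to 0.66 (liver and gut genes), and the dotted line is the median of all assessed genes, 0.04.

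Of the markers of other cell identities, a few genes held most of the counts. The summed level of 8 basal cell genes was 117 CPM in shDEPDC1B and 202 in shNC, nearly all of it the integrin gene ITGA6 (112 and 196; -0.81 [-0.89, -0.73], or -0.44 after the length and GC fit), while KRT5 was listed at 0. The 11 ciliated cell genes summed to 380 CPM in shDEPDC1B and 342 in shNC, mostly the tubulin gene TUBB4B (360 and 324). Of them 6 were assessed, 3 were called higher and 1 lower (50% and 16.7%, beside 19.2% and 19.6% of all assessed genes). The median was 0.71, or 0.48 after the length and GC fit and 0.20 at a minimum of 10 counts. TPPP3, CAPS and RSPH1 were the higher ones, at 53 to 65 counts in shDEPDC1B and 14 to 26 in shNC. The dynein gene DNAH5 was called lower, with 115 counts in shDEPDC1B and 190 in shNC (-0.64 [-0.99, -0.30], or 0.18 after the fit), and the ciliary master factor FOXJ1 had 5 counts in shDEPDC1B and 3 in shNC. Neuroendocrine genes summed to 91.4 CPM in shDEPDC1B and 70.4 in shNC, mostly ENO2 (84.5 and 66.6; 0.34 [0.24, 0.45]). SYP was at 0.89 [0.44, 1.35], or 0.58 after the fit, and INSM1 and NEUROD1 were listed at 0. Leukocyte genes summed to 48.0 CPM in shDEPDC1B and 49.3 in shNC (CD3E at 0). In the same order these were mostly CD68 (27.1 and 35.8), ITGAM (11.1 and 7.99) and CD14 (9.59 and 5.55). CD14 alone was called, higher at 0.79, or 0.37 after the fit, short of the threshold. Fibroblast genes summed to 12.2 and 10.6 (DCN at 0), mostly COL1A1 and COL3A1, neither of them called. Endothelial genes summed to 29.9 and 15.6 (KDR at 0), nearly all of it EGFL7 (29.1 and 14.6). EGFL7 was called higher, at 0.99, or 0.43 after the fit, short of the threshold. The part of these marker genes in the values of the members was not tested.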

How the data were processed

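RNA of A549 cells was sequenced in 2 libraries, grouped by the treatment label. The deposited values are estimated counts by gene symbol, not scaled for depth, made with Bowtie2 and RSEM on hg38 per the submitters' processing notes. Their versions and annotation were not given in the sources used here. Counts were rounded to whole numbers and scaled with TMM factors of edgeR 4.0.16 (R 4.3.3). With 1 library per group no test was run. Ratios carry exact Clopper-Pearson 95% intervals, levels exact Poisson intervals, and a count of 0 was read as up to 3 counts. Without molecular identifiers, reads are not independent molecules, and these limits include counting error alone. Scaling factors and ratios used all genes of the table. The length and GC fit used the 12297 assessed protein-coding genes with a known length, and the loess used the 13850 assessed genes. Ratios, intervals and calls were checked on simulated Poisson counts, but these fits were not. The simulated counts held only the counting error that the intervals assume, so the check does not cover spread between libraries. Positions, transcript lengths and words of 50 and 100 bases come from GENCODE 29 (GRCh38), which covered 94.0% of assessed genes. List names missing from the table were looked up among RefSeq synonyms. For 699 genes, none of them a member, the deposited values were not whole hundredths (tolerance 0.001 hundredths).

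The members and lists were chosen with earlier results of these data known. Named genes are the members, DEPDC1B, the most abundant gene of each list, and up to 3 called genes in each direction by the interval bound nearest to equality. Some genes that this rule names are not reported here. Other genes named, as neighbours, as relatives of named genes, at 0 counts or in small lists, were chosen after their values were seen. Alternatives were DESeq2 1.42.0 size factors, library totals, upper-quartile factors, a prior count of 2, count minimums of 10, 100 and none, a 2-fold threshold, a loess on mean expression (span 0.3), and a fit on length and GC content.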

Additional observations from a re-analysis of the deposited data

How the results depend on the processing

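Scaling by DESeq2 size factors, upper-quartile factors, a prior count of 2 or a loess on mean expression left the log2 ratios of the 8 assessed members and DEPDC1B within their counting intervals, though whether the intervals of MUC5AC, GATA6 and FOXA1 included equality changed with the scaling. With library totals, which shift the median of all assessed genes by -0.10 on the log2 scale, MUC5B was at -0.81, and 2 members were called lower, the second being HNF4A. After the fit on length and GC content MUC5AC was at 0.42, MUC5B at -0.21, HNF4A at -0.28 and FOXA2 at -0.05, with 0 members called lower, and 1636 genes were called higher and 1755 lower over the whole table. The 2-fold threshold called 0 members, 812 genes higher and 1243 lower. Count minimums of 10, 100 or none left 1 member called lower. Of 9 list medians, 3 moved by 0.2 or more at a minimum of 10 counts and 1 after the length and GC fit. No paired analysis was possible because each group has 1 library. Depth limits MUC1 and NKX2-1 most.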
